A study of Mus musculus with 6 samples.

Results

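The voltage-gated sodium and calcium channel genes of the mouse spinal cord were examined after a traumatic spinal cord injury, written TSCI in the labels. Members were chosen by gene symbol alone, as the pore-forming and auxiliary subunits of both channel classes (Scn, Cacna1, Cacna2d, Cacnb and Cacng symbols). The rule found 39 genes among 29057 genes in the deposited isoform table, with 228 of 93552 isoforms, and 78 of 17440 circular RNAs (circRNAs). The sodium channel gene listed as Scn2a1 was not matched by the symbol rule, and its annotated isoforms summed to between 1.78 and 17.5 FPKM per library. Its 2 isoforms with a new junction added 0.482, 3.76 and 4.30 FPKM in TSCI replicates 1, 2 and 3 and at most 0.405 FPKM in sham. Sums and shares of the sodium alpha family below leave this gene out. Of the 39 genes, 9 encode sodium alpha, 4 sodium beta, 10 calcium alpha1, 4 alpha2delta, 4 calcium beta and 8 gamma subunits.

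Voltage-gated sodium channels open within moments of depolarisation and carry the rising phase of the action potential. They cluster at axon initial segments and nodes of Ranvier. Voltage-gated calcium channels turn depolarisation into calcium entry, which triggers transmitter release at terminals and gene regulation in cell bodies. In each class an alpha subunit forms the pore. Beta and alpha2delta subunits set how much channel reaches the membrane and how it gates, and several gamma proteins act mainly as auxiliary subunits of AMPA-type glutamate receptors.

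The study compared 3 TSCI with 3 sham libraries of spinal cord from male C57BL/6 mice aged 8 weeks. All mice had the vertebral laminae removed over vertebrae T8 to T10, and a weight was dropped on the cord in the TSCI group only, so the sham group shares the surgery but not the impact. The labels give 48 mice, 8 for each of 3 sets per group. They do not say whether each library pools 8 mice, so p-values measure the spread between these libraries. The labels give no time between injury and collection. Levels are FPKM, fragments per kilobase of transcript scaled to the library's depth, summed over the annotated and partly matching isoforms of a gene, and they can be compared between genes because they are per length.

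The libraries differed in ways that touch every channel value. Aligned sequence came to between 4.46 and 9.16 gigabases per library. Sample names place replicate 1 of each group on sequencing lane 8, sham replicate 2 on lane 3 and the other 3 libraries on lane 1. Isoforms within introns took 9.76% and 10.2% of the bases assigned to all listed isoforms in the lane 8 libraries, against 1.98% to 3.83% in the others. In sham replicate 2, 2451 of 16740 tested genes stood at 0 FPKM; the other libraries had 409 to 762 such genes. In these bulk libraries fewer cells of a type and less RNA per cell cannot be told apart. The summed level of 10 neuron marker genes was between 708 and 1074 FPKM after TSCI and between 636 and 1495 FPKM in sham, highest in sham replicate 1. The 8 microglia and macrophage markers summed to between 219 and 312 FPKM after TSCI and between 33.7 and 50.9 FPKM in sham. The 6 erythrocyte markers summed to between 7288 and 101618 FPKM after TSCI and between 2436 and 25526 FPKM in sham. The 9 skeletal muscle markers summed to between 0.787 and 14.6 FPKM after TSCI and between 2.93 and 117 FPKM in sham. Oligodendrocyte markers, 6 in all, overlapped (1531 to 5270 against 926 to 6404 FPKM). All of these marker genes were detected in at least 1 library, and the part of each cell type in the channel levels was not tested.

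Back-splice junctions identify the circular RNAs of channel genes, so junctions of some of the circRNAs with the most counts or the lowest p-values are shown here. Those of the others are not reported here. A back-splice joins the 3′ end of a later exon to the 5′ end of an earlier one. Each line gives the last bases of the closing exon in lower case and the first bases of the opening exon in capitals, 5′ to 3′ on the transcribed strand, as built from the GENCODE M21 transcript of the host isoform (GRCm38).
circRNA65 (Cacna1c, exons 2 to 5): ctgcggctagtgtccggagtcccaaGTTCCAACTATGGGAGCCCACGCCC
circRNA14235 (Cacna1c, exons 2 to 4): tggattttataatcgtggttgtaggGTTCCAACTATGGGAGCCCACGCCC
circRNA12692 (Cacna1a, exons 18 to 40): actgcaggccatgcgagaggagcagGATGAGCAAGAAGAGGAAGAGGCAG
circRNA3166 (Scn1a, exons 13 to 21): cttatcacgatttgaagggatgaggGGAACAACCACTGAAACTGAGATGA
circRNA12591 (Cacna2d3, exons 15 to 17): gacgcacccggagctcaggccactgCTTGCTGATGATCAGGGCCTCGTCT
circRNA7894 (Cacna2d3, exons 21 to 24): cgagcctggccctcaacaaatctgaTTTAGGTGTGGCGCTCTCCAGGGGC
circRNA7797 (Scn8a, exons 13 to 15): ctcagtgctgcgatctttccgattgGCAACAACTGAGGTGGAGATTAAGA
circRNA16510 (Cacna1d, exons 4 to 7): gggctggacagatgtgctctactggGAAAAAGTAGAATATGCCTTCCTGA
The 2 Cacna1c junctions share the opening exon and differ only in the closing one.

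No channel gene passed the test between TSCI and sham. Of the 39 genes, 30 had a mean of at least 0.5 FPKM and were tested with limma on log2(FPKM + 0.5), with Benjamini-Hochberg adjustment over 16740 genes. Over all genes tested, 149 passed an adjusted p of 0.05, which is 0.89%, and 147 of them were higher after TSCI. Among the 30 channel genes 0 passed, and 0 had an unadjusted p under 0.05, against 11.8% of all genes. The lowest adjusted p among them was 0.52, for Cacng2. Their log2 fold changes ran from -1.24 to 1.08, with 17 below and 13 above zero and a median of -0.35, while the median over all genes tested was 0.44. Over all genes tested, 11699 of 16740 were above zero. With median-ratio scaling 21 of 30 were below zero, with a median of -0.68 against 0.07 for all genes. With quantile normalization 26 were below zero, with a median of -0.87 against -0.03. In each of these runs 5 channel genes, all lower, had an unadjusted p under 0.05 by limma and 0 passed. The share of all genes at that p was not computed there. Other alternatives gave from 0 to 2 such genes. A p that misses the threshold does not show equal levels, and the 95% intervals of the fold changes were wide, as for Scn1a (-2.22 to 1.28).

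The channel level of sham replicate 1 set it apart from the other libraries. Summed over the 39 genes, the channels reached 250 FPKM, 99.9 FPKM and 146 FPKM in TSCI replicates 1, 2 and 3, and 484 FPKM, 114 FPKM and 146 FPKM in sham replicates 1, 2 and 3. Both lane 8 libraries were above the other 4, and sham replicate 1 was the highest library for 21 of the 30 tested channel genes, which is 70.0%, against 27.9% of all genes. This was not particular to the channels. Sham replicate 1 also led in 8 of 10 neuron markers and 14 of 17 sodium and calcium pumps and exchangers. It led in 9 of 12 sodium channel anchor and node genes, 7 of 18 calcium channel regulators and partners and 0 of 8 microglia and macrophage markers. Without sham replicate 1 the median log2 fold change of the 30 genes was 0.47 in place of -0.35, and 8 rather than 17 were below zero. The median over all genes was then 0.79. Within lane 8, TSCI replicate 1 was below sham replicate 1 for 24 of the 30 genes, with a median difference of -0.61 against 0.04 for all genes. Within lane 1, TSCI replicates 2 and 3 averaged below sham replicate 3 for 13 of 30, with a median difference of 0.05 against 0.47 for all genes. For the 10 neuron markers the median log2 fold change was -0.21 with all libraries and 0.49 without sham replicate 1. Their median difference was -1.05 within lane 8 and -0.04 within lane 1. Neither lane holds enough libraries for a test within it.

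**Figure D1:**
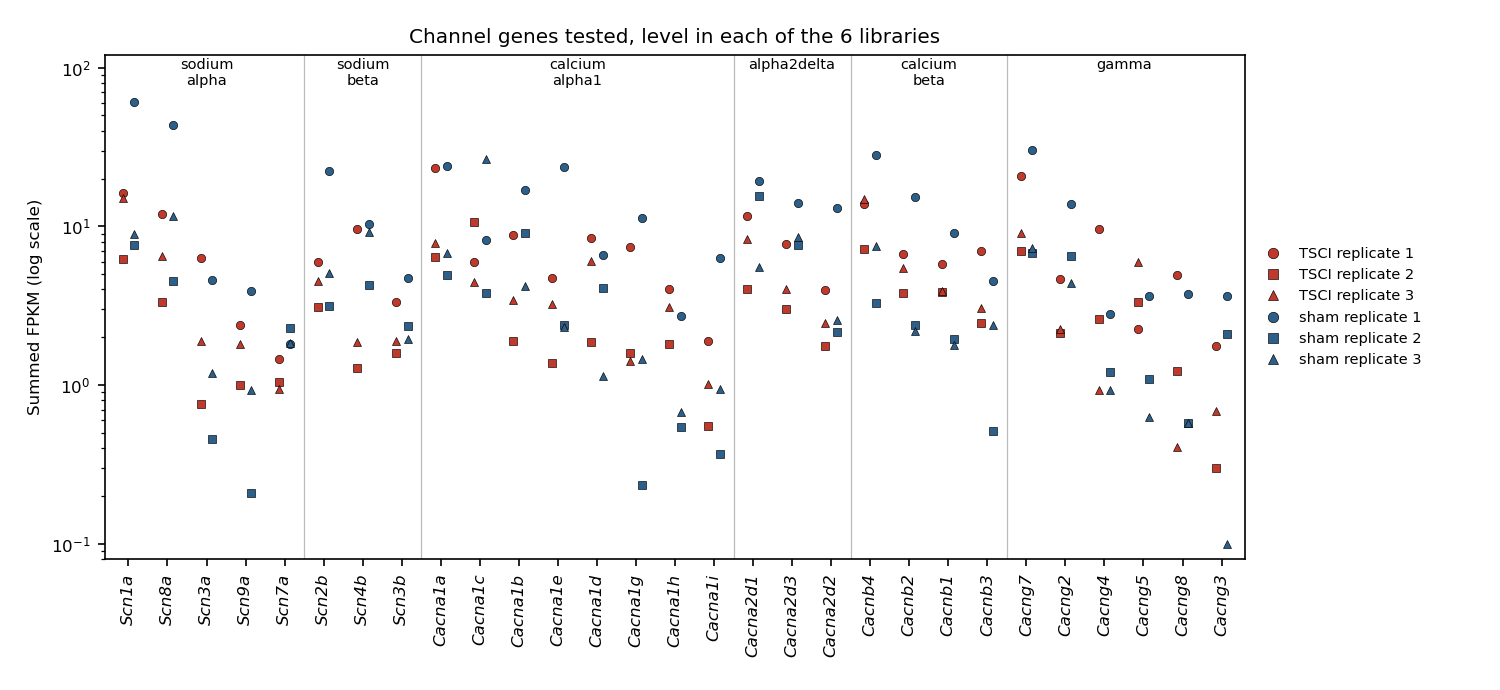
Summed FPKM (log scale) of 29 of the 30 tested channel genes in each library, grouped by subunit family, with TSCI in red, sham in blue and one marker shape per replicate. The lane 8 libraries (circles) sit at or near the top for most genes, and sham replicate 1 is the highest library for 20 of them.

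Among the sodium alpha members, which leave out Scn2a1, Scn1a and Scn8a carried most of the signal. Scn1a (ENSMUSG00000064329, chr2:66270778-66440840, minus strand), which encodes Nav1.1, had 16.1, 6.27 and 15.2 FPKM after TSCI and 60.4, 7.64 and 8.95 FPKM in sham. The groups overlapped, and only sham replicate 1 stood above the rest. Scn8a (chr15:100869858-101045938, plus strand), which encodes Nav1.6, the main channel of mature nodes of Ranvier, had 11.9, 3.33 and 6.53 FPKM after TSCI and 43.5, 4.51 and 11.6 FPKM in sham. Its groups overlapped as well, with a log2 fold change of -1 (SE 0.82). It was lower after TSCI within both lanes, by log2 differences of -1.82 in lane 8 and -1.23 in lane 1. The direction turned when annotated isoforms only were summed, to a log2 fold change of 0.87.

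Scn7a, which encodes the sodium-sensing channel Nax, was the only tested channel gene whose groups did not overlap. It had 1.47, 1.04 and 0.944 FPKM after TSCI and 1.82, 2.29 and 1.83 FPKM in sham, a log2 fold change of -0.60 (SE 0.63). That is 1 of 30 channel genes with all TSCI libraries below all sham libraries, against 3.13% of all genes. With all TSCI libraries above all sham libraries there were 0 channel genes, against 13.4% of all genes. Scn3a, which encodes the mainly embryonic Nav1.3, had 6.34, 0.757 and 1.90 FPKM after TSCI and 4.56, 0.453 and 1.18 FPKM in sham. Both groups were led by their lane 8 library, and the log2 fold change was 0.45 (SE 0.83). Scn9a, which encodes Nav1.7 of peripheral sensory and sympathetic neurons, had 2.39, 0.994 and 1.81 FPKM after TSCI and 3.90, 0.208 and 0.932 FPKM in sham.

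The channels of other tissues were low. Scn4a of skeletal muscle did not exceed 0.31 FPKM in any library. Scn10a and Scn11a, of nociceptive sensory neurons, were highest in TSCI replicate 1, at 1.67 and 1.41 FPKM, and at or under 0.395 FPKM in the other libraries. These 3 genes had means under 0.5 FPKM and were not tested.

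The sodium beta subunits are single-pass membrane proteins that modulate gating and act as adhesion molecules. Scn4b, whose product binds covalently to alpha subunits and is tied to resurgent current, had 9.67, 1.28 and 1.85 FPKM after TSCI and 10.4, 4.28 and 9.23 FPKM in sham. The lane 8 library was high in both groups, and the log2 fold change of -1.19 (SE 0.77, adjusted p = 0.592) came with a difference of -0.09 within lane 8 and of -2.25 within lane 1. Scn2b had 5.98, 3.08 and 4.52 FPKM after TSCI and 22.3, 3.17 and 5.06 FPKM in sham. Scn3b had 3.33, 1.58 and 1.88 FPKM after TSCI and 4.70, 2.34 and 1.95 FPKM in sham. These 3 genes had negative fold changes and were highest in sham replicate 1, and none passed the test.

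The calcium alpha1 subunits form P/Q-type (Cacna1a), N-type (Cacna1b), L-type (Cacna1c and Cacna1d), R-type (Cacna1e) and T-type (Cacna1g, Cacna1h and Cacna1i) channels. Cacna1a (chr8:84388440-84640246, plus strand) had the highest mean over the 6 libraries, with 23.3, 6.43 and 7.87 FPKM after TSCI and 24.1, 4.96 and 6.84 FPKM in sham. The groups overlapped closely, and the log2 fold change was 0.16 (SE 0.76). Its place was not the same in every library, since Cacna1c was higher in TSCI replicate 2 and sham replicate 3, and Cacna1b and not Cacna1a led in sham replicate 2. Cacna1b (chr2:24603887-24763152, minus strand) had 8.85, 1.91 and 3.43 FPKM after TSCI and 17.1, 9.02 and 4.23 FPKM in sham, a log2 fold change of -1.05 (SE 0.74). It was below sham within lane 8 by -0.91 and within lane 1 by -0.62. Cacna1e had 4.69, 1.37 and 3.24 FPKM after TSCI and 23.7, 2.40 and 2.31 FPKM in sham. Only sham replicate 1 was apart, and its log2 difference was -2.22 within lane 8 and -0.09 within lane 1.

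Cacna1h (chr17:25374285-25433783, minus strand), the T-type channel Cav3.2 known for its role in pain-sensing neurons, had the highest fold change of the channel genes. It had 4.02, 1.81 and 3.11 FPKM after TSCI and 2.74, 0.542 and 0.677 FPKM in sham, a log2 fold change of 1.08 (SE 0.70, adjusted p = 0.595). The groups overlapped through sham replicate 1, and TSCI was above sham in both lanes, by 0.48 and 1.29. Cacna1g had 7.40, 1.59 and 1.42 FPKM after TSCI and 11.3, 0.234 and 1.47 FPKM in sham. Cacna1i had 1.88, 0.549 and 1.02 FPKM after TSCI and 6.36, 0.369 and 0.948 FPKM in sham. The 3 T-type genes had fold changes of different signs, and none passed the test. Cacna1d had 8.41, 1.87 and 6.04 FPKM after TSCI and 6.58, 4.06 and 1.14 FPKM in sham, again overlapping.

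Among the alpha1 genes tested, only Cacna1c was not highest in a lane 8 library. It had 5.96, 10.6 and 4.45 FPKM after TSCI and 8.16, 3.78 and 26.6 FPKM in sham, so sham replicate 3 was the highest library. A short assembled isoform of 592 bases and 3 exons (chr6:119052598-119069171), named MSTRG.97421.24 in the files, held 67.3% of the Cacna1c FPKM in sham replicate 3 and 90.6% in TSCI replicate 2. It was listed at 0 in TSCI replicate 1 and sham replicate 2. The full-length ENSMUST00000186889 held between 4.18% and 90.7% of the gene's FPKM, so the Cacna1c sum mixed different transcripts in different libraries. Cacna1f of retina and Cacna1s of skeletal muscle did not exceed 0.317 FPKM in any library.

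The alpha2delta subunits are extracellular anchored proteins, and the products of Cacna2d1 and Cacna2d2 bind gabapentin. Cacna2d1 (chr5:15934691-16374511, plus strand) had 11.6, 4.05 and 8.29 FPKM after TSCI and 19.3, 15.6 and 5.52 FPKM in sham. The groups overlapped, with a log2 fold change of -0.66 (SE 0.70). Cacna2d3 (chr14:28904943-29721864, minus strand) had 7.75, 3.00 and 4.04 FPKM after TSCI and 14.1, 7.61 and 8.53 FPKM in sham. TSCI replicate 1 and sham replicate 2 were nearly level, and the other TSCI libraries lay below every sham library. Its log2 fold change of -1.01 (SE 0.65, adjusted p = 0.593) had the same sign within lane 8 (-0.82) and within lane 1 (-1.18). Cacna2d2 had 4, 1.76 and 2.46 FPKM after TSCI and 13, 2.15 and 2.57 FPKM in sham. Cacna2d4 had a mean of 0.318 FPKM and was not tested. All 3 tested alpha2delta genes had negative fold changes, and none passed the test.

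The calcium beta subunits are cytoplasmic and carry alpha1 to the membrane. All 4 had positive fold changes, from 0.20 to 0.81, as did 11699 of 16740 genes tested, and none passed the test. Only Cacnb3 lay above the median of all genes tested, which was 0.44. Cacnb4, the most abundant, had 13.9, 7.16 and 14.9 FPKM after TSCI and 28.2, 3.27 and 7.50 FPKM in sham. Cacnb2 had 6.66, 3.79 and 5.50 FPKM after TSCI and 15.3, 2.39 and 2.18 FPKM in sham. Cacnb1 had 5.82, 3.87 and 3.89 FPKM after TSCI and 9.08, 1.95 and 1.78 FPKM in sham. In these 3 genes sham replicate 1 was the highest library and the other sham replicates lay below TSCI or level with it. Cacnb3 had 6.98, 2.44 and 3.07 FPKM after TSCI and 4.52, 0.513 and 2.38 FPKM in sham. With median-ratio scaling, Cacnb1, Cacnb2 and Cacnb4 turned to values at or below zero, so the positive sign of this family depends on the scaling.

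The gamma genes include the transmembrane regulators of AMPA receptors. Cacng2 (ENSMUSG00000019146, chr15:77991748-78120028, minus strand), which encodes stargazin, had the lowest p of the channel genes. It had 4.64, 2.14 and 2.26 FPKM after TSCI and 13.7, 6.53 and 4.38 FPKM in sham. The log2 fold change was -1.24 (SE 0.68, 95% interval -2.70 to 0.23, adjusted p = 0.52 by limma). The groups overlapped only because TSCI replicate 1 lay just above sham replicate 3. TSCI was below sham within lane 8 by -1.47 and within lane 1 by -0.86. With median-ratio scaling the log2 fold change was -1.66 and the adjusted p 0.191, and with quantile normalization these were -1.71 and 0.179. Cacng7, the most abundant gamma gene, had 20.8, 7.02 and 9.09 FPKM after TSCI and 30.5, 6.77 and 7.29 FPKM in sham, a log2 fold change of -0.06 (SE 0.74). Cacng5 had 2.25, 3.36 and 5.97 FPKM after TSCI and 3.62, 1.09 and 0.63 FPKM in sham. Its log2 fold change of 1.07 (SE 0.72) joined a difference of -0.58 within lane 8 to one of 2.14 within lane 1. Cacng4 had 9.69, 2.60 and 0.925 FPKM after TSCI and 2.81, 1.21 and 0.934 FPKM in sham. Cacng8 had 4.93, 1.22 and 0.404 FPKM after TSCI and 3.72, 0.571 and 0.578 FPKM in sham. Cacng3 had 1.76, 0.298 and 0.687 FPKM after TSCI and 3.64, 2.08 and 0.0995 FPKM in sham. In each of these genes the groups overlapped. Cacng1 and Cacng6 did not exceed 0.143 FPKM in any library.

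**Figure D2:**
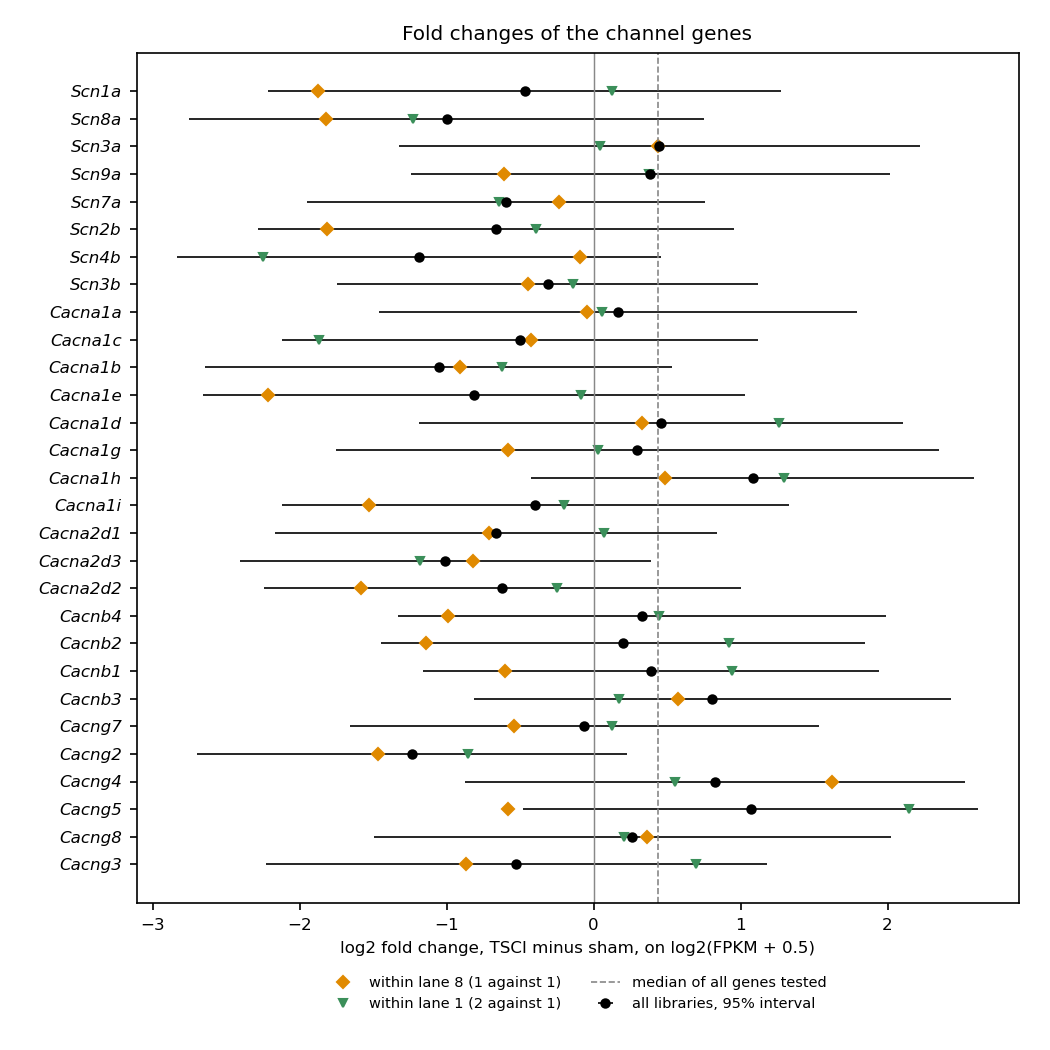
Log2 fold change (TSCI minus sham, on log2(FPKM + 0.5)) of 29 of the 30 tested channel genes. Black points with bars are the estimate and 95% interval from all libraries, orange diamonds the difference within lane 8 and green triangles that within lane 1; every interval crosses zero, and the dashed line marks the median of all genes at 0.44.

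A share within its family does not change with the scaling of a library, so each gene was also expressed as a percentage of its family's summed FPKM. This description was added after the levels had been seen, carries no test, and the shares of a family sum to a fixed total and so are not independent. Cacng2 made up 10.5%, 12.7% and 11.6% of the gamma sum after TSCI and 23.7%, 35.5% and 31.5% in sham. All TSCI values were thus below all sham values, and with 3 libraries against 3 the smallest exact two-sided permutation p is 0.1 for any one share. Cacna1h made up 6.24%, 6.87% and 10.2% of the alpha1 sum after TSCI and 2.74%, 2.12% and 1.52% in sham. Cacna1a made up 36.1%, 24.5% and 25.7% of the alpha1 sum after TSCI and 24.1%, 19.4% and 15.4% in sham. Both shares were higher in every TSCI library.

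Within the sodium alpha family, whose sum leaves out Scn2a1, the share of Scn8a was 28.8%, 26.2% and 24.5% after TSCI and 37.8%, 29.3% and 46.4% in sham, without overlap. The share of Scn9a was 5.75%, 7.83% and 6.80% after TSCI and 3.39%, 1.35% and 3.71% in sham. The share of Scn3a was 15.3%, 5.97% and 7.11% after TSCI and 3.96%, 2.94% and 4.72% in sham. Scn1a kept between 35.7% and 56.9% of the sum in all libraries, with the groups overlapping. In all, 2 of the 30 tested genes had lower shares without overlap, which is 6.67%, and 4 had higher shares without overlap, which is 13.3%. Such shares were not computed for other gene families. These counts therefore have no background beside them and are not read as a result about the channels. Of these 6, Cacng2 alone stayed without overlap both when annotated isoforms alone were summed and when every isoform with the gene name was summed. The Cacna1a and Cacna1h shares overlapped when all isoforms with the gene name were summed, and the Scn8a and Scn9a shares overlapped under both choices. The Scn3a share overlapped with annotated isoforms alone.

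**Figure D3:**
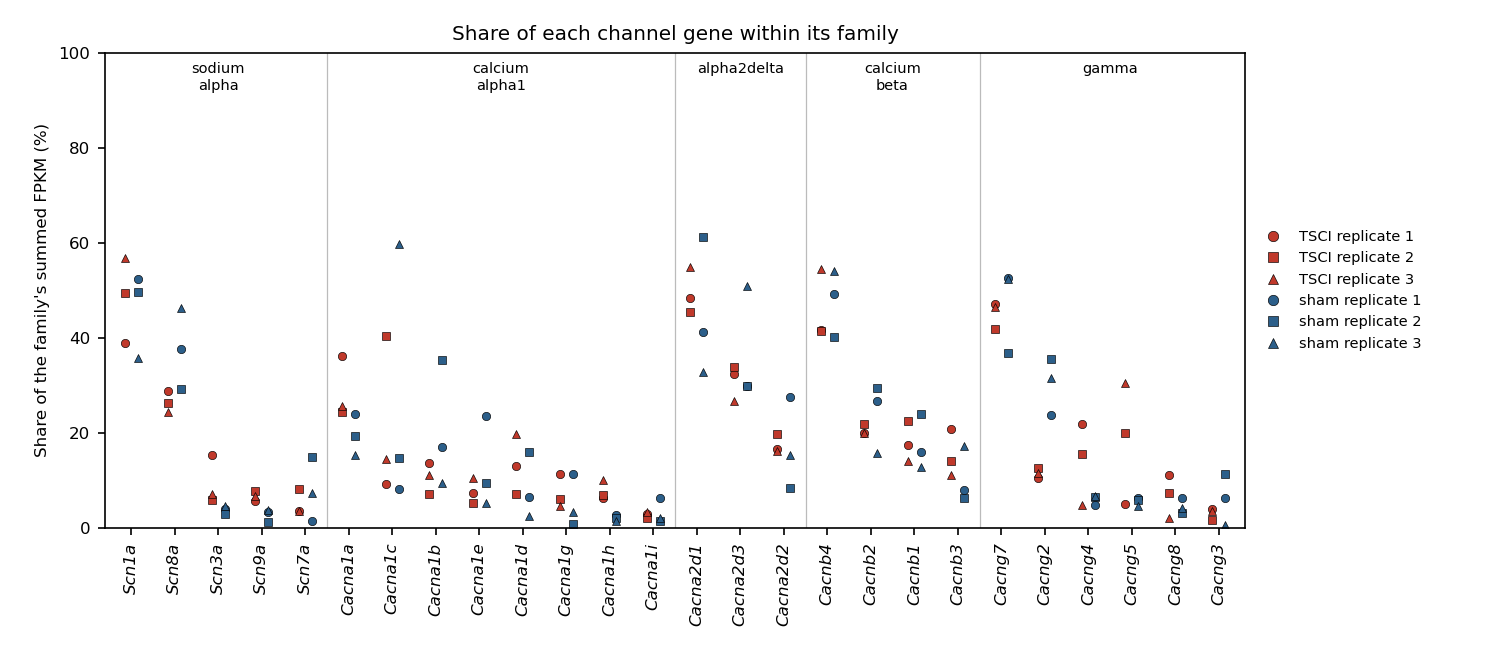
Share of each tested gene in the summed FPKM of its family (percent), by library, for the sodium alpha subunits (without Scn2a1) and the calcium channel families, with TSCI in red and sham in blue. The Cacng2 points of the TSCI libraries lie between 10.5% and 12.7%, below the sham points at 23.7% to 35.5%.

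At the level of isoforms, the channel genes were divided among many partly assembled transcripts. Of the 228 isoforms, 172 matched an annotated transcript and 56 had a new junction. Beside them, 595 assembled isoforms with channel gene names lay within introns and were not summed. Their FPKM came to 1017 in TSCI replicate 1 and 616 in sham replicate 1, against 68.0 to 243 in the other libraries. In the isoform test 87 channel isoforms were among 40383 tested, 0 passed the threshold by limma, and 5 of 87 had an unadjusted p under 0.05, against 6.35% of all isoforms. Over all isoforms 14 passed, which is 0.0347%. The median log2 fold change of the channel isoforms was -0.08, and that of all isoforms 0.37. Isoforms listed at 0 in at least 1 library made up 66.7% of the channel isoforms and 67.3% of all. How the authors' tool divided reads among isoforms is part of every isoform value. With all TSCI libraries below all sham libraries there were 9 channel isoforms, against 2.43% of all isoforms, and with all above there was 1, against 9.02%.

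The lowest p belonged to ENSMUST00000078324, a 14-exon transcript of Cacnb4 (chr2:52428325-52676831), with 0, 0.174 and 0.132 FPKM after TSCI and 2.63, 2.86 and 6.22 FPKM in sham. The groups did not overlap, and the adjusted p was 0.442 by limma. In TSCI replicates 2 and 3 and sham replicate 1 the assembled isoform MSTRG.60470.6 held between 52.1% and 71.8% of the Cacnb4 FPKM instead. In Scn1a, the 29-exon MSTRG.61188.7 had 0.33, 0.616 and 0 FPKM after TSCI and 20.9, 6.95 and 1.08 FPKM in sham. The 7-exon MSTRG.61188.8, which covers the 3′ part of the gene (chr2:66270807-66294529), had 10.7, 1.53 and 6.89 FPKM after TSCI, 2.29 FPKM in sham replicate 1 and was listed at 0 in the other sham replicates. This short isoform held 66.1%, 24.4% and 45.4% of the Scn1a FPKM after TSCI and at most 3.79% in sham. Its log2 fold change was 2.64 (SE 1.01, adjusted p = 0.685 by limma), and that of MSTRG.61188.7 was -3.03 (SE 1.02, adjusted p = 0.584 by limma).

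The assembled MSTRG.59067.11 of Cacna1b had 0, 0.222 and 0.082 FPKM after TSCI and 1.28, 6.97 and 1.52 FPKM in sham, without overlap. ENSMUST00000114956 of Scn3b had 0.3, 0.073 and 0.018 FPKM after TSCI and 1.62, 2.34 and 1.18 FPKM in sham, also without overlap. Neither passed the threshold. Among the most abundant isoforms, the 28-exon MSTRG.61188.6 of Scn1a had 4.38, 0.936 and 3.51 FPKM after TSCI, 30.3 and 5.91 FPKM in sham replicates 1 and 3, and was listed at 0 in sham replicate 2. Cacng7 stood almost wholly on ENSMUST00000092891, with 18.8, 6.89 and 8.35 FPKM after TSCI and 26.9, 6.77 and 6.95 FPKM in sham. Scn2b and Scn4b each had a single isoform, ENSMUST00000170998 and ENSMUST00000060125, which carry the gene values above. The main isoforms of Cacna2d1 and Cacna2d3 (ENSMUST00000167946 and ENSMUST00000022567) had log2 fold changes of -0.60 (SE 0.88) and -1.12 (SE 0.89), with overlapping groups.

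**Figure D4:**
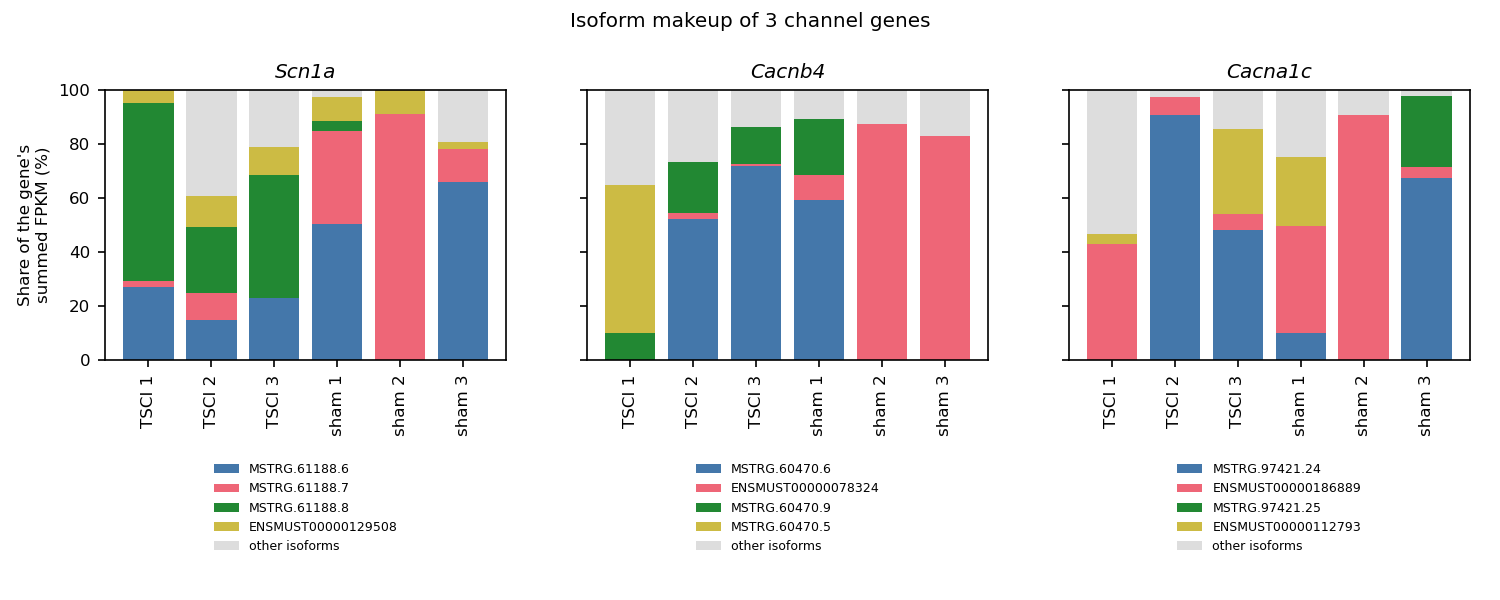
Share of each gene's summed FPKM (percent) held by its most abundant isoforms in each library, for Scn1a, Cacnb4 and Cacna1c; grey is the rest. In Scn1a the short MSTRG.61188.8 holds 24.4% to 66.1% after TSCI and 0 to 3.79% in sham.

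The circRNAs came from 14 of the 39 genes, and 77 of the 78 had both ends at annotated exon ends. No circRNA of a channel gene passed the test between TSCI and sham. With edgeR's quasi-likelihood test 0 of 78 passed an adjusted p of 0.05, against 0 (0%) of all 17363 tested, and the lowest adjusted p was 0.422. DESeq2 called 251 circRNAs in all and 0 of channel genes, whose lowest adjusted p by DESeq2 was 0.0885. The authors' counts are not whole numbers and were rounded. In 61 of 61 pairs where one channel circRNA lies within another, the outer had at least the count of the inner in all 6 libraries, as in all 17216 such pairs of the table, so circRNAs of a gene share reads and are not independent. Whether reads of linear transcripts are among these counts cannot be told apart.

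Short of the threshold, most circRNAs of channel genes had negative fold changes with all libraries, but not without sham replicate 1. An unadjusted p under 0.05 was reached by 17 of 78 (21.8%), all lower after TSCI, against 7.01% of all circRNAs tested. With all TSCI libraries below all sham libraries there were 17 of 78 (21.8%), against 7.67% of all, and 13 circRNAs met both. With all TSCI libraries above all sham libraries there were 0, against 10.2% of all. In all, 63 of 78 had negative log2 fold changes, with a median of -0.61, while the median of all circRNAs was 0.01. Without sham replicate 1, negative fold changes numbered 39 of 78. The 17 non-overlapping ones came from 7 host genes, with 4 from Scn8a, 3 each from Cacna1b, Cacna2d1 and Cacna2d3, 2 from Cacna1e and 1 each from Cacna1d and Scn1a. The number at an unadjusted p under 0.05, a count chosen after seeing the data, depended on single libraries. Without sham replicate 1 it was 16 of 78 lower and 3 higher, with a median of -0.06, against 15.6% lower of all circRNAs. Without TSCI replicate 3 it was 3 of 78 (3.85%) against 1.62% of all, without TSCI replicate 2 it was 9 (11.5%) against 5.75%, and without TSCI replicate 1 it was 11 (14.1%) against 2.36%.

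Scn8a had 9 circRNAs, of which 7 were at an unadjusted p under 0.05. circRNA7797, of 3 exons (chr15:101002034-101011190), had 116, 52.0 and 129 counts after TSCI and 402, 146 and 202 counts in sham. As CPM, counts scaled to the library's normalised total, it had 23.6, 13.5 and 16.3 after TSCI and 47.8, 33.3 and 49.6 in sham, and the groups did not overlap. Its log2 fold change was -1.29 (adjusted p = 0.422 by edgeR). circRNA7795 is the single exon 2 of Scn8a, and had 7.74, 7.55 and 5.34 CPM after TSCI and 11.8, 23.0 and 21.4 in sham, a log2 fold change of -1.44. Summed over the gene, Scn8a circRNAs had a log2 fold change of -1.22 (unadjusted p = 0.00497 and adjusted p = 0.216 by edgeR), beside -1 for its FPKM.

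In Cacna2d3, circRNA12591 (chr14:29097784-29105025) had 7.53, 3.12 and 2.16 CPM after TSCI and 12.1, 33.3 and 16.5 in sham. circRNA7894 (chr14:29055887-29062540) had 7.33, 7.29 and 5.59 CPM after TSCI and 13.4, 48.8 and 17.7 in sham. Both were lower in every TSCI library, with log2 fold changes of -2.27 and -1.98. circRNA16510 of Cacna1d (chr14:30178545-30196863) had 18.7, 12.2 and 12.3 CPM after TSCI and 31.0, 32.4 and 35.9 in sham, a log2 fold change of -1.20. The 3 sham libraries lay close together and above every TSCI library, while the FPKM of the same gene overlapped between groups, with a log2 fold change of 0.46.

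The circRNAs with the most counts differed among themselves. circRNA65 of Cacna1c (chr6:118776417-119057515) had 660, 463 and 304 CPM after TSCI and 651, 311 and 331 in sham, a log2 fold change of 0.14. circRNA14235 (chr6:118780185-119057515), which lies within it and shares its opening exon, had nearly the same values, from 303 to 659 after TSCI and from 304 to 650 in sham. circRNA12692 of Cacna1a (chr8:84556704-84629925), which spans 23 exons, had 421, 202 and 154 CPM after TSCI and 333, 110 and 138 in sham, a log2 fold change of 0.42. circRNA14834 of Cacnb4 had 139, 105 and 77.0 CPM after TSCI and 163, 56.3 and 63.9 in sham. In each of these the groups overlapped. The highest Scn1a circRNA, circRNA14856, had 103, 139 and 120 CPM after TSCI and 345, 145 and 280 in sham, without overlap and with a log2 fold change of -1.08. The other Scn1a circRNA named above, circRNA3166 (chr2:66296753-66323444), had 85.3, 104 and 111 after TSCI and 352, 46.5 and 136 in sham. circRNA13206 of Cacna1e had 122, 79.2 and 68.5 after TSCI and 242, 128 and 100.03 in sham. circRNA1497 of Cacna2d1 had 106, 77.1 and 77.6 after TSCI and 210, 44.0 and 58.5 in sham. These 3 overlapped between groups.

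**Figure D5:**
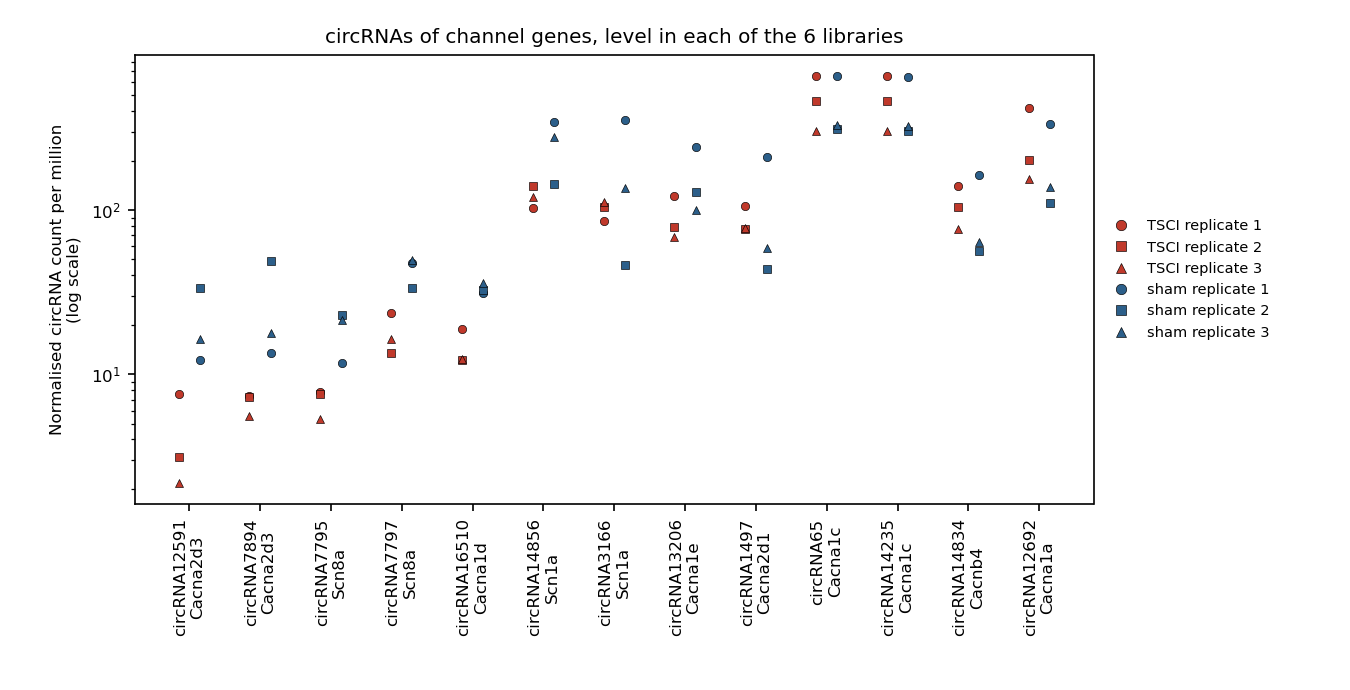
Normalised circRNA counts as CPM (log scale) of the 13 circRNAs with the most counts or the lowest p-values, by library, ordered by fold change. The 5 at the left, of Cacna2d3, Scn8a and Cacna1d, are lower in every TSCI library than in every sham library, and the Cacna1c and Cacna1a circRNAs overlap.

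Set beside the FPKM of the same genes, circRNA counts summed per host gene were lower after TSCI for 13 of 14 hosts, against 48.9% of the 5294 host genes tested. The sign was that of the FPKM fold change for 11 of 14. The exceptions were Cacna1d, Cacnb2 and Cacnb4, whose FPKM fold changes were 0.46, 0.20 and 0.33 and whose circRNA sums had log2 fold changes of -0.47, -1.07 and -0.10. Of the 14 sums 3 were lower at an unadjusted p under 0.05, against 7.74% of all host genes, and 0 passed the adjusted threshold by edgeR, against 0.0567% of all host genes. These sums were fitted with all libraries only. Without sham replicate 1, 39 of the 78 single circRNAs had negative fold changes. Whether the 13 of 14 depend on that library was not tested. The amount of isoform coverage per circRNA count, which may hold reads of circular as well as linear transcripts, differed widely between genes. It was lowest for Cacna1c, with a median of 31.2 aligned bases of summed isoforms per circRNA count, next for Cacna2d3 with 77.5, and highest for Scn7a with 1567. Because circRNAs of a gene share reads, the host sums here and for Scn8a above can count the same reads more than once. The order of genes by this measure can therefore depend on how many overlapping circRNAs are listed for each.

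Genes that work with these channels were read from lists of symbols. Of 12 genes for sodium channel anchors and the node of Ranvier, 12 were tested, 0 passed in either direction and the median log2 fold change was 0.36. Gldn, which encodes the nodal adhesion protein gliomedin, had 1.63, 0.988 and 1.87 FPKM after TSCI and 0.515, 0.365 and 0.093 FPKM in sham, without overlap (adjusted p = 0.449 by limma). Cntnap2, which encodes Caspr2 of the juxtaparanode, had 3.62, 9.11 and 9.01 FPKM after TSCI and 19.9, 19.8 and 13.5 FPKM in sham, without overlap (adjusted p = 0.454 by limma). Of 10 sodium channel regulators 9 were tested, 0 passed and the median was -0.12. Rest, a repressor of neuronal genes, had 4.82, 2.08 and 4.37 FPKM after TSCI and 2.43, 1.30 and 0.28 FPKM in sham. Fgf12, an intracellular partner of sodium channels, had 14.2, 9.40 and 20.5 FPKM after TSCI and 40.2, 28.9 and 19.1 FPKM in sham. Both overlapped between groups.

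Of 22 calcium channel regulators and partners 18 were tested, 1 rose, 0 fell and the median was 0.04. The one that rose was Thbs1, whose product is a thrombospondin, a family of secreted proteins that bind the alpha2delta-1 subunit. It had 70.1, 24.6 and 49.6 FPKM after TSCI and 5.18, 1.87 and 4.11 FPKM in sham, a log2 fold change of 3.49 (SE 0.68, adjusted p = 0.0282 by limma). Every TSCI library was above every sham library. The call was lost, at a log2 fold change of 3.23 and an adjusted p of 0.0548, with quantile normalization, and when TSCI replicate 1, 2 or 3 or sham replicate 2 or 3 was left out (adjusted p from 0.0726 to 0.282). It was also lost without both lane 8 libraries, without a filter on low values and with the other choices of isoform class (adjusted p from 0.068 to 0.219). Thbs1 is also made by cells other than neurons, and of the 8 microglia and macrophage markers given above 3 rose. The 5 smooth muscle and pericyte markers summed to between 122 and 318 FPKM after TSCI and between 21.3 and 34.3 FPKM in sham, and of the 4 tested 1, Tagln, rose. The 5 endothelial markers summed to between 23.6 and 59.3 FPKM after TSCI and between 6.55 and 20.5 FPKM in sham, and 0 passed. The part of these cells in the level of Thbs1 was not tested. Rims1, which encodes a presynaptic scaffold that holds calcium channels at release sites, had 8.59, 14.2 and 14.5 FPKM after TSCI and 43.7, 90.2 and 66.2 FPKM in sham, without overlap. Its log2 fold change was -2.36 (SE 0.66, adjusted p = 0.118 by limma). It passed by limma at an adjusted p of 0.02 without sham replicate 1 and of 0.0177 with lane 8 as a covariate. Those runs called 1211 and 644 of all genes, against 149 in the main run. Apart from the replicate block, Rims1 missed the threshold in every other alternative, with adjusted p values by limma from 0.0846 to 0.508.

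Of 7 symbols for the leak channel complex 4 were in the table, 4 were tested, 0 passed, all 4 had negative fold changes and the median was -1.07. Nalcn, the sodium leak channel, had 8.81, 15.8 and 13.1 FPKM after TSCI and 24.7, 56.7 and 27.9 FPKM in sham. Unc79, one of its large auxiliary proteins, had 4.08, 2.25 and 5.27 FPKM after TSCI and 12.3, 9.59 and 7.05 FPKM in sham. Both were lower in every TSCI library, with adjusted p values of 0.41 and 0.482 by limma. Of 6 calcium release channels 5 were tested, 0 passed and the median was 0.11. The ryanodine receptor Ryr3 had 6.28, 0.931 and 0.928 FPKM after TSCI and 14, 3.59 and 3.72 FPKM in sham, and Ryr2 had a log2 fold change of -0.87 (SE 0.76), both overlapping. Of 17 sodium and calcium pumps and exchangers 17 were tested, 0 passed and the median was -0.47. Atp2a1, the calcium pump of fast skeletal muscle, had 0, 0.753 and 0.412 FPKM after TSCI and 0.24, 20.3 and 7.11 FPKM in sham, in the order of the skeletal muscle markers among sham libraries; their part was not tested. Atp2a1 passed, at an adjusted p of 0.00337 by limma, when sham replicate 1 was left out. Apart from the replicate block, it missed the threshold in every other alternative, with adjusted p values by limma from 0.0717 to 0.845.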

How the data were processed

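Ribosomal RNA was depleted from Trizol-extracted RNA and stranded total RNA libraries were made, per the labels' protocols. HISAT2, TopHat and StringTie appear in the submitters' processing notes with no version. No source used here names the circRNA caller or the build. The authors deposited 1 table of isoforms with FPKM and coverage (signal) per library and 1 of circRNAs with estimated counts and FPKM. Coordinates equalled those of GENCODE M21 (GRCm38) for 94.6% of the Ensembl isoforms found there, so positions are given as GRCm38. FPKM of isoforms with class code =, j, c, o or e were summed per gene. Genes and isoforms with a mean of at least 0.5 FPKM were tested with limma 3.58.1 (trend) on log2(FPKM + 0.5), which understates changes of low genes. Coverage gave aligned bases. circRNA counts, rounded, with at least 10 in all and present in 3 libraries, went through the quasi-likelihood test of edgeR 4.0.16 after TMM normalization, and with DESeq2 1.42.0 as an alternative. The adjusted p threshold was 0.05. The steps were tested on simulated data. At a true log2 fold change of 2, 4.48% of genes, 0% of isoforms and 4.48% of circRNAs passed the threshold. At 4 these were 62.7%, 2.99% and 68.7%, so changes of the size seen here would mostly be missed. Members and lists were chosen with earlier results of these data known. Named were all members, isoforms and circRNAs with the highest values (8) or lowest p (5), and in each list the genes past the threshold and the 2 of lowest p; some of these items are not reported here. Alternatives covered pseudocounts, filters, scaling, isoform classes, the replicate block, the lane and each library left out.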

Additional observations from a re-analysis of the deposited data

How the results depend on the processing

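No channel gene, isoform or circRNA passed the threshold under any alternative run, and the lowest adjusted p of a channel gene over these was 0.136, without sham replicate 1. The lowest adjusted p of a channel circRNA was 0.0671 by edgeR, also without sham replicate 1. The number of all genes called, 149 with the settings of the report, was 0 with no filter on low values, 74 with median-ratio scaling, 61 with quantile normalization, 24 with all isoforms of a gene name, 43 with annotated isoforms only, 644 with lane 8 as a covariate and 33 without both lane 8 libraries, and from 0 to 1211 when 1 library was left out. Leaving out 1 library moved the median log2 fold change of the channel genes between -0.54 and 0.47. The replicate block gave 963 called genes and still 0 channel genes, and under it Rims1 and Atp2a1 passed, with adjusted p values of 0.0145 and 0.0344 by limma. Samples with the same number had deviations correlated at 0.491, 0.284 and 0.0775, and those with different numbers at -0.496 to 0.361. These values do not decide whether the numbers pair the samples, and replicate 1 of each group also shared lane 8. The replicate block was therefore run only as an alternative. The block turned the log2 fold change of circRNA1497 to 0.081.

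Several fold changes reversed, and the cause was not tested. Among them were Scn8a, from -1 to 0.87, and Ryr2, from -0.87 to 0.19. With median-ratio scaling, Cacna1a, Cacnb1, Cacnb2 and Cacnb4 had -0.28, -9.95e-06, -0.21 and -0.12, in that order. With quantile normalization, Cacna1a, Cacna1d, Cacna1g, Cacnb1, Cacnb2, Cacnb4, Cacng8, Scn3a and Scn9a had -0.27, -0.014, -0.24, -0.11, -0.33, -0.20, -0.19, -0.063 and -0.15. Summing all isoforms of a gene name gave -0.98 for Cacnb2, -0.32 for Scn9a and 0.19 for Ryr2. Summing annotated isoforms only gave -0.00117 for Cacna1g, 0.17 for Cacna1i, -1.34 for Cacnb4, 0.45 for Scn1a and 0.87 for Scn8a, and the share differences of Scn3a and Scn8a became -2.15 and 7.68 percentage points. Without both lane 8 libraries, Cacna1i, Cacng7 and Scn1a had 0.17, 0.18 and 0.23, the isoforms ENSMUST00000092891 and MSTRG.61188.6 had 0.14 and 0.42, and circRNA3166 and circRNA1497 had 0.25 and 0.60.

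Leaving out 1 library at a time gave ranges across zero for 17 channel genes. Among sodium channels these were Scn1a from -0.99 to 0.46, Scn3a from -0.21 to 1.11, Scn9a from -0.22 to 1.10, Scn2b from -1.21 to 0.11 and Scn3b from -0.57 to 0.015. Among alpha1 genes they were Cacna1a from -0.38 to 0.82, Cacna1c from -1.11 to 0.22, Cacna1d from -0.14 to 1.02, Cacna1e from -1.34 to 0.21, Cacna1g from -0.61 to 1.40 and Cacna1i from -1.01 to 0.48. Among the other genes they were Cacna2d2 from -1.05 to 0.12, Cacnb2 from -0.25 to 1.03, Cacnb4 from -0.34 to 1.12, Cacng3 from -1.34 to 0.0504, Cacng7 from -0.51 to 0.62 and Cacng8 from -0.44 to 0.92. Isoform ranges across zero were -0.49 to 0.56 for ENSMUST00000092891, -2.21 to 0.76 for MSTRG.61188.6 and -1.21 to 0.11 for ENSMUST00000170998. circRNA ranges across zero were -0.17 to 0.57 for circRNA65, -0.16 to 0.59 for circRNA14235, -0.12 to 1.06 for circRNA12692, -1.30 to 0.13 for circRNA3166, -0.64 to 0.76 for circRNA1497 and -0.094 to 0.83 for circRNA14834. Genes at a few FPKM, and circRNAs that share reads, limit the precision of all these values.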
